A study of Mus musculus with 2 samples.

Results

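The cells described here were bladder fibroblasts in which at least 3 of the 5 genes Dner, Kcnn3, Gucy1a1, C1qtnf3 and Stc2 were detected, a group with high Cxcl12. Of 2783 barcodes in the Tom+ library 128 were such cells, and of 13551 in the Tom- library 270, together 398 of 16334. A barcode was used when it held at least 1000 UMIs (unique molecular identifiers, each standing for 1 captured RNA molecule), at least 500 genes and under 15% mitochondrial UMIs, and when it occurred in 1 library only or was the copy more than 10 times deeper. Fibroblasts were then the cells with at least 40 UMIs of Col1a1, Col1a2, Col3a1 and Dcn per 10000 UMIs and fewer than 2 UMIs of Pecam1, Cdh5 and Epcam. The 920 Tom+ and 6220 Tom- fibroblasts divided into these members and 792 Tom+ and 5950 Tom- other fibroblasts. The study compared, by single-cell RNA sequencing, tdTomato-positive (Tom+) with tdTomato-negative (Tom-) cells from the bladder of a single 25-month-old male p16-CreERT2/R26-LSL-tdTomato mouse, and its title concerns CXCL12 from senescent fibroblasts. In this mouse the p16 promoter drives a Cre recombinase that tamoxifen activates, and a recombined cell and its progeny keep the red reporter whether or not they still express p16. The animal received tamoxifen on 5 consecutive days and was killed 2 weeks later, and both libraries were sorted from it without CD45+ and DAPI+ cells. No group without tamoxifen or from a young animal was analysed here. With 1 library a group there is no replicate, so no test was made: intervals are at 95% and cover counting error only, and differences are described by size.

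CXCL12 is a chemokine that connective tissue cells secrete. It acts through the receptor CXCR4, while the atypical receptor ACKR3 binds and removes it, and glycosaminoglycan chains hold it in the matrix. Gucy1a1 and Gucy1b1 encode the subunits of the soluble guanylate cyclase, which makes cGMP when nitric oxide binds. Kcnn3 encodes the calcium-activated potassium channel SK3. In the bladder wall, PDGFRα-positive interstitial cells are known for SK3 channels and purine receptors, through which they hyperpolarise in response to ATP. Dner encodes a transmembrane protein with EGF-like repeats that has been described as a Notch ligand, C1qtnf3 a secreted C1q and TNF-related protein, and Stc2 the glycoprotein stanniocalcin 2, which inhibits the protease PAPP-A.

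Gucy1b1, the partner of the rule gene Gucy1a1, was higher in these cells, and Cxcl12, also outside the rule, gives them their label. The upstream sequences are therefore shown for 5 of the genes. Each is the 250 bases before the annotated start in RefSeq on GRCm38.p6, 5′ to 3′ on the strand of the gene. Capitals mark GC boxes (GGGCGG) and CCAAT motifs found on either strand, and GC boxes that share letters were counted separately. They lie at chr6:117168285-117168534 on the plus strand for Cxcl12, chr3:82145651-82145900 on the minus strand for Gucy1a1, chr3:82074712-82074961 on the minus strand for Gucy1b1, chr3:89519914-89520163 on the plus strand for Kcnn3 and chr1:84696222-84696471 on the minus strand for Dner. For Gucy1a1 the table lists 2 starts, and 1 is shown; it differs from the start in the GENCODE annotation, whose gene span given below overlaps this window.
Cxcl12: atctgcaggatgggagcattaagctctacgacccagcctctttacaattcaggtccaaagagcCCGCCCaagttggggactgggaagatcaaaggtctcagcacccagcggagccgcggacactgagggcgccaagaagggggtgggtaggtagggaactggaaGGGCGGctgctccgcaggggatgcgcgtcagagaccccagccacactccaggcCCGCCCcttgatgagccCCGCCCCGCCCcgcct
Gucy1a1: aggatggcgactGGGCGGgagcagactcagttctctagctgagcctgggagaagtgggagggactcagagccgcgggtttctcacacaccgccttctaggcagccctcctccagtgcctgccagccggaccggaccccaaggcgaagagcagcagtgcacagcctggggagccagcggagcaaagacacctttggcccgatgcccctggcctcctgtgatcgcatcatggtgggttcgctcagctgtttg
Gucy1b1: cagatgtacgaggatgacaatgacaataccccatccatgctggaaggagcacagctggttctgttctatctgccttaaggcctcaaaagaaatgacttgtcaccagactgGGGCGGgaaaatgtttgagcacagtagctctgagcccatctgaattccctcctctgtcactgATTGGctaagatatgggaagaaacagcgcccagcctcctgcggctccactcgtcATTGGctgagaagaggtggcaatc
Kcnn3: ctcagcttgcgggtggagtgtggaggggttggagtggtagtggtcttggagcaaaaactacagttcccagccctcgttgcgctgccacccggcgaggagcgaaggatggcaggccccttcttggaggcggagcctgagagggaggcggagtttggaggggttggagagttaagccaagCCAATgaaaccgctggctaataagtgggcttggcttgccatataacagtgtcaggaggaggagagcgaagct
Dner: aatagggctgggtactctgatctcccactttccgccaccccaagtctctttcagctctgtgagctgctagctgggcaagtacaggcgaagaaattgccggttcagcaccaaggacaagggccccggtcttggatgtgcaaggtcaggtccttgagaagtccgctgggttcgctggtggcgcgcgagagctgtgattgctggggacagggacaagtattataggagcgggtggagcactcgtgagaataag

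The Cxcl12 window held 5 GC boxes and no CCAAT motif. The windows of Gucy1a1 and Gucy1b1 held 1 GC box each, that of Gucy1b1 also 2 CCAAT motifs, and that of Kcnn3 1 CCAAT motif. In the Dner window neither string occurred. Among all 27025 promoter windows 32.9% held a GC box and 34.5% a CCAAT motif. Of 20 leading genes (the 5 rule genes and the 15 genes highest in members), 17 matched the table, of which 8 held a GC box and 7 a CCAAT motif. The core string of hypoxia response elements, ACGTG, stood in 3 of the 17 windows and in 16.6% of all windows. A match is a description of letters and shows no binding. In the GRCm38 annotation Gucy1a1 (chr3:82092427-82145789) and Gucy1b1 (chr3:82032006-82074689) are neighbours on the minus strand.

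The rule's own genes describe the members and support nothing. Levels are UMIs summed over the cells of a group per 1000000 UMIs of those cells (CPM). In members Gucy1a1 stood at 504 CPM in the Tom+ library and 319 CPM in the Tom- library, against 75.9 and 51.2 CPM in other fibroblasts. In Tom+ and Tom- members Dner stood at 357 and 264 CPM, Kcnn3 at 269 and 191 CPM, C1qtnf3 at 307 and 212 CPM and Stc2 at 229 and 139 CPM. In other fibroblasts these 4 genes lay between 6.24 and 28.9 CPM. The rule asks for at least 3 of the 5 genes in a cell, so overlap among members was fixed in advance. Dner and Gucy1a1 were detected together in 74.2% of Tom+ and 64.8% of Tom- members. The least frequent pair, C1qtnf3 with Stc2, was found in 46.1% and 35.2%. All 5 were detected in 37 of 128 Tom+ members (28.9%) and 44 of 270 Tom- members (16.3%), whereas exactly 3 were detected in 48 (37.5%) and 146 (54.1%). The Tom- members therefore lay closer to the threshold of the rule.

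Members made up 13.9% of Tom+ fibroblasts (Clopper-Pearson 11.7 to 16.3%) and 4.34% of Tom- fibroblasts (3.85 to 4.88%), a ratio of shares of 3.21 (2.63 to 3.91). Over all cells used, the shares were 7.35% (of 1741) in the Tom+ library and 2.72% (of 9919) in the Tom- library. The sort on the reporter sets both denominators, so these are shares of sorted cells and not of the bladder. Depth differed: Tom+ members had a median of 8348.5 UMIs and Tom- members 10107 UMIs, against 10050 and 12856.5 UMIs in Tom+ and Tom- other fibroblasts. When each cell was thinned to 2000 UMIs before the rule, 48 Tom+ and 69 Tom- members remained and the ratio of shares was 4.98. Outside the fibroblast threshold, 4 of 821 Tom+ and 34 of 3699 Tom- cells had 3 or more of the 5 genes. Reporter transcripts followed the sort: tdTomato UMIs were found in 126 of 128 Tom+ members (1789 CPM) and in 49 of 270 Tom- members (24.3 CPM).

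Over both libraries, 966 barcodes occurred in the Tom+ and in the Tom- library, and 2 Tom+ members and 0 Tom- members carried one of these. The libraries held 34455896 Tom+ and 197232860 Tom- UMIs, of which members held 1128670 and 2884069. Scrublet called 1 Tom+ and 5 Tom- members doublets.

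The fibroblast label was checked on genes that the rule did not use. Fibroblast markers outside the rule summed to 12904 CPM in Tom+ members against 8725 CPM in Tom+ other fibroblasts, and to 12186 against 7923 CPM in the Tom- library. Lum, a small collagen-binding proteoglycan, and Pdgfra, the receptor of platelet-derived growth factor A, were the only 2 of these 10 markers at least 2 times higher in members in both libraries. Pdgfra stood at 873 CPM in Tom+ members and 684 CPM in Tom- members, against 360 and 331 CPM in other fibroblasts. It was detected in 98.4% and 96.7% of members. Without cells with markers of other cell types, an alternative added after the data were seen and described below, the Pdgfra ratios were 1.82 and 1.91 and this call was lost. Of the 5 immune markers Ptprc, Cd3e and Cd79a were at 0 in the members of both libraries and Cd68 and Lyz2 were detected; the 5 summed to 4.43 CPM in Tom+ and 2.77 CPM in Tom- members, against 2.74 and 6.25 CPM in other fibroblasts. The 5 Schwann cell markers summed to 1.77 and 15.3 CPM, against 5.48 and 10.9 CPM. The adipocyte genes Adipoq, Plin1 and Lep were at 0 in members. The pericyte marker Higd1b was at 0 in both and Rgs5 and Kcnj8 in Tom+ members, but Abcc9, a potassium channel subunit that pericytes express, was higher in members (56.7 and 67.6 CPM) than in other fibroblasts (17.7 and 12.3 CPM; without other-type cells the ratio was 1.82 in the Tom+ library). The summed pericyte list was 59.4 CPM in Tom+ members and 77.7 CPM in Tom- members, against 34.6 and 41.4 CPM in other fibroblasts. In Tom+ members 3 of 6 markers were detected and in Tom- members 5 of 6. Abcc9 alone held 64 of the 67 UMIs of the list in Tom+ and 195 of the 224 UMIs in Tom- members. The rest of the list was together lower in members than in other fibroblasts.

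Cxcl12, which the label names but the rule does not use, was higher in members in both libraries. It was detected in 128 of 128 Tom+ and 260 of 270 Tom- members, against 447 of 792 and 3777 of 5950 other fibroblasts. Summed levels were 1834 CPM (1756 to 1915) in Tom+ members and 1224 CPM in Tom- members, against 281 and 236 CPM in other fibroblasts. The ratio of members to other fibroblasts was 6.54 (6.17 to 6.93) in the Tom+ library and 5.18 (4.99 to 5.37) in the Tom- library. On the log2 scale with 1 CPM added these were 2.70 and 2.37, and without barcodes found in both libraries 2.36 and 2.37. Against other fibroblasts without markers of other cell types (described below) they were 1.93 and 2.07. In cells thinned to 2000 UMIs, 91.3% of the Tom+ members and 79.0% of the Tom- members still had a Cxcl12 UMI, against 33.2% and 30.2% of other fibroblasts.

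Cell by cell, Cxcl12 per 10000 UMIs ran from 0.76 through a median of 18.3 to 79.0 in Tom+ members and from 0 through 10.4 to 62.7 in Tom- members. In other fibroblasts the medians were 0.887 and 0.961, with maxima of 78.6 and 113.5. The ranges of members and other fibroblasts overlapped. The median of the members was reached by 36 of 792 Tom+ other fibroblasts (4.55%) and by 402 of 5950 Tom- other fibroblasts (6.76%). In cell numbers the Tom- library therefore held more cells at or above that level outside the members (402) than among them (135), whereas the Tom+ library held 36 outside and 64 among them.

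**Figure D1:**
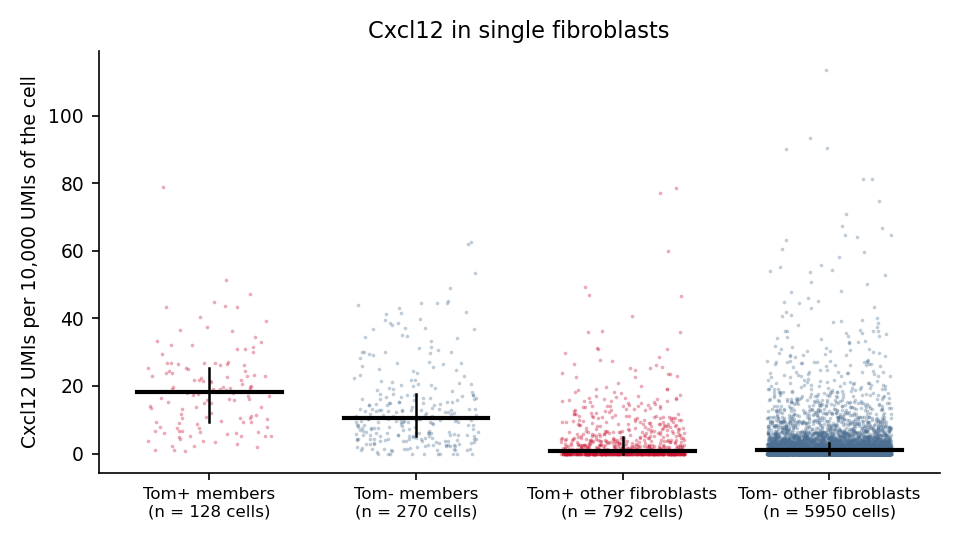
Cxcl12 UMIs per 10000 UMIs of each fibroblast, for members and other fibroblasts of the Tom+ and Tom- libraries. Points are cells (spread sideways at random), thick lines medians and thin lines the middle 50% of cells. Member medians are 18.3 (Tom+) and 10.4 (Tom-), and other fibroblasts have high single cells but medians under 1.

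From 1 to 5 detected rule genes, Cxcl12 was higher at each step in both libraries. Just outside the threshold, cells with 2 of the 5 genes (94 Tom+ and 463 Tom- cells) had 675 and 455 CPM of Cxcl12. Just inside it, cells with 3 had 1339 and 887 CPM. Tom+ cells with 4 genes had 1940 CPM and Tom- cells 1614 CPM, and those with 5 had 2325 and 1739 CPM. Cells with none stood at 237 and 233 CPM. Pdgfra, Gucy1b1 and Adcyap1r1, none of them in the rule, were also higher in cells with 5 genes than in cells with 2 in both libraries. The group has no sharp lower edge, and cells with more rule genes also differ in depth, with medians of 9774.5 and 13176 UMIs in Tom+ and Tom- cells with 2 genes and 9003 and 10405 UMIs in those with 5.

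**Figure D2:**
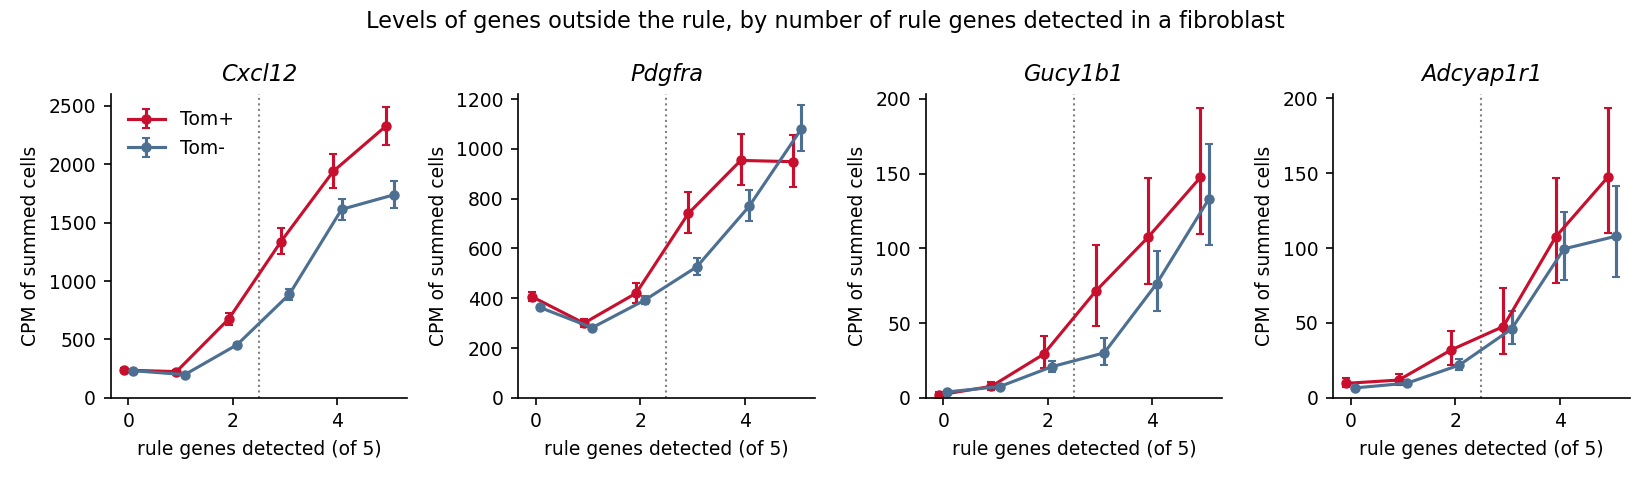
Summed levels (CPM, with 95% counting intervals) of Cxcl12, Pdgfra, Gucy1b1 and Adcyap1r1 in fibroblasts with 0 to 5 of the rule genes detected, Tom+ in red and Tom- in blue. The dotted line is the threshold of the rule. Cxcl12 is at 237 (Tom+) and 233 CPM (Tom-) with no rule gene and reaches 2325 (Tom+) and 1739 CPM (Tom-) with 5.

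Other fibroblasts were sorted into sets by the detection of at least 2 of 3 label genes, and a cell could enter several. Cxcl12 was next highest in the set of Lsamp, Npy1r and Pex5l in the Tom+ library (489 CPM) and in the set of Gdf10, Myoc and Penk in the Tom- library (469 CPM). The set of Gdf10, Myoc and Penk had 447 CPM in the Tom+ library, and that of Lsamp, Npy1r and Pex5l 318 CPM in the Tom- library. The set of Pi16, Scara5 and Dpp4 held 364 and 248 CPM, and that of Cck, Wnt2 and Cxcl14 195 and 210 CPM. Members exceeded each of these sets in both libraries. Of the members, 72.7% of Tom+ and 81.9% of Tom- cells also met the Pi16, Scara5 and Dpp4 criterion, against 56.2% and 66.0% of other fibroblasts. The Gdf10, Myoc and Penk criterion was met by 25.0% and 25.9% of members, against 13.1% and 10.3%. Fewer members than other fibroblasts met the Lsamp, Npy1r and Pex5l criterion, 14.8% and 20.7% against 23.1% and 33.4%. The Cck, Wnt2 and Cxcl14 criterion was met by 2 of 128 Tom+ members (1.56%) and 37 of 270 Tom- members (13.7%), against 14.6% and 45.4% of other fibroblasts. Outside fibroblasts, cells with endothelial markers had 287 CPM of Cxcl12 in the Tom+ and 702 CPM in the Tom- library. Cells with urothelial markers, which should lack the transcript and show free RNA, had 4.61 and 21.0 CPM at median depths of 36598.5 and 38689 UMIs, so the member levels stood far above that background.

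**Figure D3:**
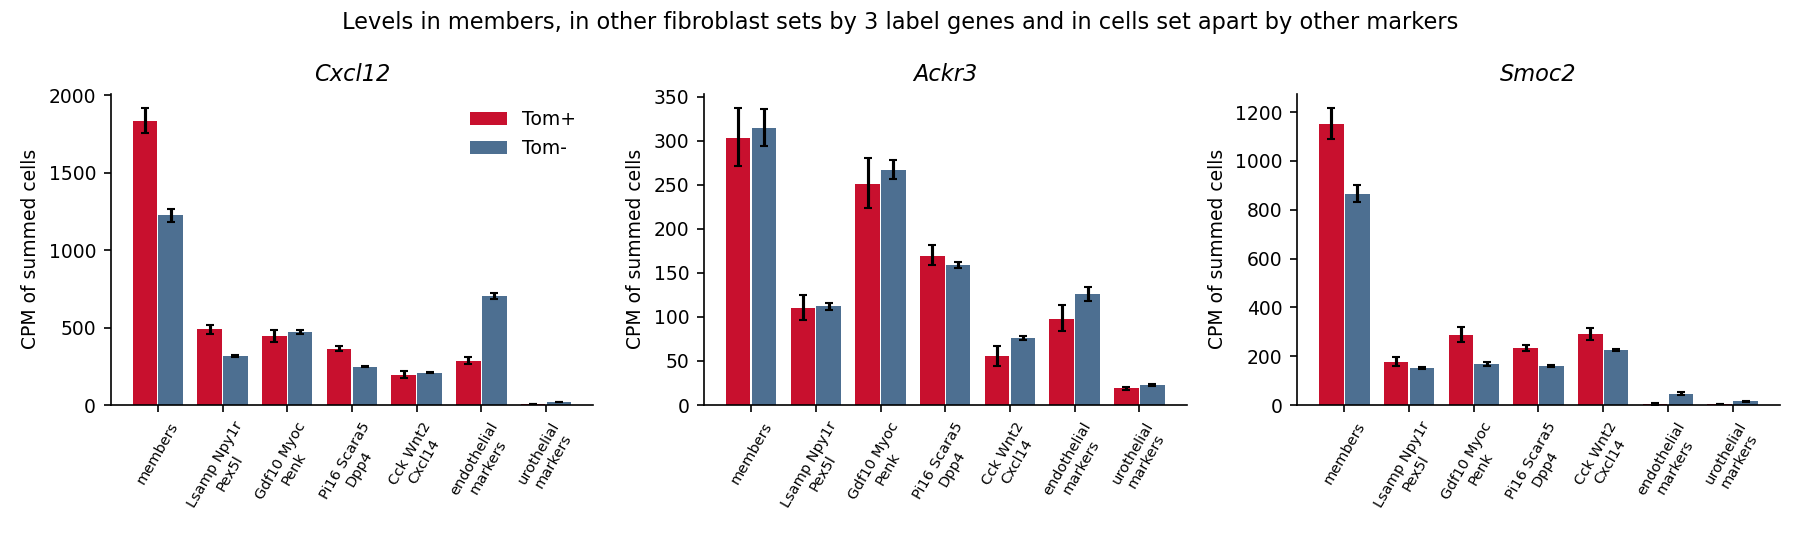
Summed levels (CPM, with 95% counting intervals) of Cxcl12, Ackr3 and Smoc2 in members, in 4 other fibroblast sets and in cells with endothelial or urothelial markers, Tom+ left of Tom-. Cxcl12 and Smoc2 are highest in members in both libraries, while Ackr3 in the Gdf10, Myoc and Penk set (251 and 267 CPM) lies near the members (303 and 315 CPM).

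The receptors and binding partners of CXCL12 did not all follow it. Ackr3 stood at 303 CPM in Tom+ members and 315 CPM in Tom- members, against 110 and 118 CPM in other fibroblasts, a ratio of 2.77 (2.44 to 3.13) and 2.67 (2.49 to 2.86). Cxcr4 had 0 UMIs in Tom+ members and 3 UMIs in 2 Tom- members. The glypicans Gpc3 (389 and 311 CPM) and Gpc6 (299 and 226 CPM), which carry heparan sulfate, were each at least 2 times higher in members in both libraries. Of 25 measured genes of a list on CXCL12 support and binding, 4 were higher (Cxcl12, Gpc3, Ackr3 and Gpc6) and 0 lower; the median log2 ratio was -0.13. Without other-type cells Gpc6 (1.85 and 1.69) and, in the Tom+ library, Ackr3 (1.93) fell short of 2-fold. Among 14 measured chemokines and their receptors 3 were higher and 7 lower. The 3 were Cxcl12, Ackr3 and Ackr2, a scavenger of inflammatory chemokines, at 46.1 and 32.6 CPM in Tom+ and Tom- members against 6.43 and 4.52 CPM in other fibroblasts. The 7 lower were Cxcl5, Ccl2, Cxcl10, Cxcl14, Cxcl1, Ccl7 and Cxcl16. Without other-type cells Cxcl14 was still lower, at ratios of 0.0150 in Tom+ and 0.204 in Tom-. For the rest of these 7 genes no level without such cells is given.

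These counts are read against all genes. Measured genes reached 10 CPM in members or in other fibroblasts and had 20 UMIs over the pair. Of 9010 genes measured in both libraries, 184 (2.04%) were at least 2 times higher in members than in other fibroblasts in both and 358 (3.97%) at least 2 times lower, with a median log2 ratio of -0.05. In the Tom+ library alone 345 of 9346 (3.69%) were at least 2 times higher in members, and in the Tom- library alone 253 of 9272 (2.73%). Members were chosen from the same cells, so these are descriptions. The 5 rule genes were left out of them.

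The 15 highest genes by size included Cxcl12. Edn3, which encodes endothelin 3, had 93.03 CPM in Tom+ members and 71.1 CPM in Tom- members, against 7.38 and 6.83 CPM in other fibroblasts. Gucy1b1, the partner of the rule gene Gucy1a1, had 106 and 59.6 CPM against 7.59 and 6.83 CPM, a ratio of 14.005 (10.4 to 19.0) in Tom+ and 8.73 (7.32 to 10.4) in Tom- cells. Adcyap1r1, the receptor of the neuropeptide PACAP, had 97.5 and 70.7 CPM against 13.2 and 9.20 CPM. Enpp1, an ectoenzyme that makes pyrophosphate from ATP, was 6.41 and 8.25 times higher in members. Spry1, an inhibitor of receptor tyrosine kinase signalling, was 7.81 and 6.12 times higher. Ptger4, a prostaglandin E2 receptor, was 6.12 and 5.00 times higher. Jam2, a junctional adhesion molecule, was 5.29 and 5.83 times higher.

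Secreted and matrix proteins were among the abundant transcripts of members. Smoc2, a calcium-binding matricellular protein, had 1151 CPM in Tom+ members and 866 CPM in Tom- members, against 223 and 198 CPM in other fibroblasts. Crispld2, a secreted protein that binds lipopolysaccharide, had 1199 and 1027 CPM against 259 and 248 CPM. Adamtsl3, an ADAMTS-like glycoprotein, had 245 and 178 CPM against 50.9 and 37.6 CPM. The dipeptidase gene Dpep1, the transporter gene Abca8a, the transcriptional regulator gene Mn1 and the ubiquitin ligase gene Rnf144a were 4.15 to 5.75 times higher in each library. All 15 leading genes kept their direction under each alternative in which they were recomputed.

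**Figure D4:**
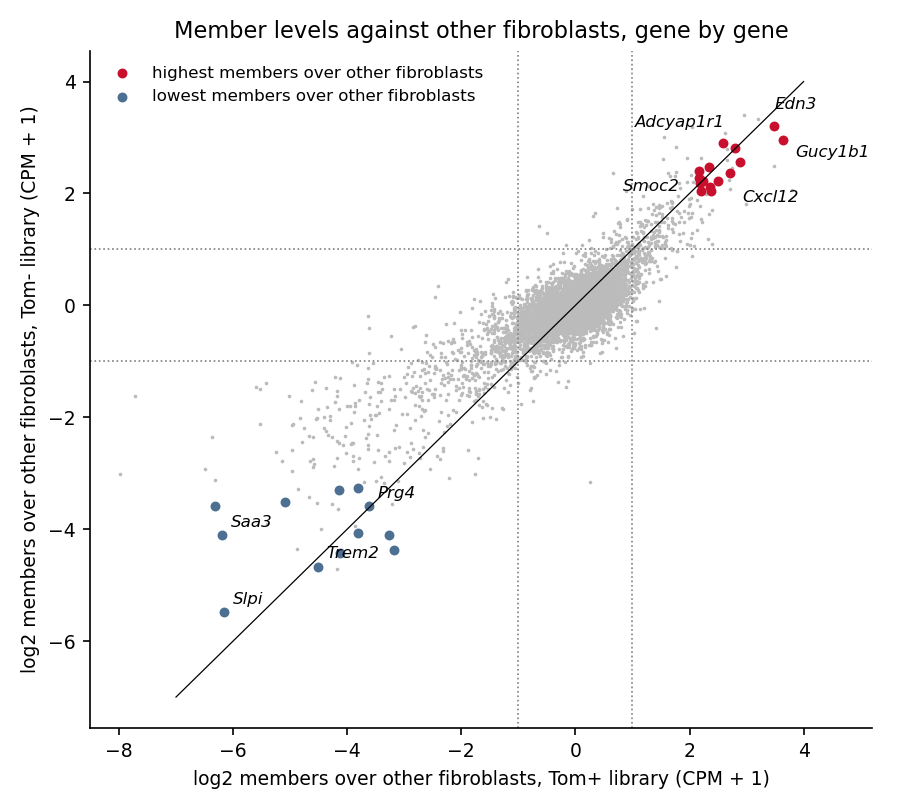
Log2 ratio of members to other fibroblasts (CPM + 1) for each gene measured in both libraries, Tom+ library across and Tom- library up. Rule genes and tdTomato are left out, dotted lines mark 2-fold, and the solid line equal ratios. The 15 highest genes (red), Cxcl12 at 2.70 and 2.37 among them, lie near the line, and the 12 lowest (blue) are named in the text.

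Gene groups showed how far this profile extended. Of 60 measured matrix glycoproteins and proteoglycans 17 were higher and 8 lower in members; their median log2 ratio was 0.60 against -0.05 over all genes. Matn2, a matrilin of filamentous networks, had 1241 CPM in Tom+ and 921 CPM in Tom- members, against 350 and 201 CPM in other fibroblasts. Svep1, a large adhesion protein, had 456 and 462 CPM against 117 and 99.7 CPM, and Mfap4, a microfibril protein, 335 and 450 CPM against 106 and 89.7 CPM. Collagens were mostly alike: 2 of 21 were higher, the basement-membrane-zone collagen Col15a1 and the fibril-associated Col14a1, and 2 lower, Col6a5 and Col12a1. Col14a1 was at 1.70 in the Tom+ library without other-type cells. Matrix enzymes and inhibitors had 5 of 34 higher and 2 lower. Complement had 2 of 13 higher (C7 and Cd55, which limits complement on the cell surface) and 5 lower, but without other-type cells C7 (1.958) and Cd55 (1.91) were under 2-fold in the Tom+ library. C3 had 590 CPM in Tom+ and 1030 CPM in Tom- members, against 4008 and 2983 CPM in other fibroblasts, but without cells with other-type markers its log2 ratio in the Tom- library was 0.06.

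Genes of interstitial cells and their signals were followed as well. Of 10 measured interstitial cell genes, 4 were higher (Gucy1b1, P2ry1, Adcyap1r1 and Pdgfra) and 2 lower (Ano1 and Gja1), Pdgfra with the loss of its call given above. P2ry1, the ADP receptor that couples to calcium release and through it to SK channels, had 16.8 CPM in Tom+ members and 19.4 CPM in Tom- members, against 0.949 and 1.02 CPM in other fibroblasts. It was detected in 10.9% and 11.5% of members. Entpd2, an ectonucleotidase that makes ADP from ATP, had 838 and 708 CPM against 255 and 255 CPM and was detected in 98.4% and 97.8% of members; its Tom+ ratio was 1.99 without other-type cells. Among 17 measured purinergic, adrenergic and peptide receptors and their enzymes, 5 were higher (P2ry1, Adcyap1r1, Ptgir, Ptger4 and Entpd2) and 2 lower (Ptger3 and Ednrb). The receptor of prostacyclin, Ptgir, had 34.6 and 30.2 CPM against 6.75 and 4.02 CPM. Kit and Ano1, markers of interstitial cells of Cajal, together had 2 UMIs in Tom+ and 12 UMIs in Tom- members (1.77 and 4.16 CPM), against 27.4 and 25.3 CPM in other fibroblasts.

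Of 13 measured genes of nitric oxide and cGMP signalling, Gucy1b1 was higher and Prkg2 lower, and the other 11 met neither threshold. Of 15 measured ion channel genes, Scn7a (a sodium-sensing channel) and Kcnt2 (a sodium-activated potassium channel) were higher and Kcnd2 lower. Without other-type cells Scn7a was at 1.67 in the Tom+ library, and Kcnt2, at 2.05 there, missed the threshold on the scale with 1 CPM added. Of 11 measured Notch genes none was higher, beside the rule gene Dner, and Cntn1 was lower. Of 20 measured Wnt genes 3 were higher (the secreted inhibitors Frzb and Sfrp1 and the receptor Fzd4) and 7 lower, among them Dkk2, Wnt4 and Sfrp2. Without other-type cells Sfrp1 (1.85) and Fzd4 (1.86) were under 2-fold in the Tom+ library. Bmp6 had 154 and 103 CPM in Tom+ and Tom- members against 41.9 and 34.0 CPM. Pparg, a lipid-sensing nuclear receptor, had 47.8 and 41.3 CPM against 10.97 and 10.2 CPM. The lists of hypoxia (15 measured) and the unfolded protein response (18 measured) had 0 higher and 0 lower. Interferon-stimulated genes had 0 of 24 higher and 5 lower, at a median of -1.02 on the log2 scale.

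Low genes in members moved with markers of other cell types among the other fibroblasts. The 12 lowest by the rule were Slpi, Trem2, Cd74, Saa3, Fgf1, Gpm6a, Prg4, H2-Ab1, Smpd3, Slc9a3r1, H2-Aa and H2-Eb1. Slpi, a secreted protease inhibitor, had 9.75 CPM in Tom+ and 19.4 CPM in Tom- members, against 763 and 912 CPM in other fibroblasts. The 4 mesothelial markers Msln, Upk3b, Lrrn4 and Wt1 summed to 23.9 CPM in Tom+ and 71.4 CPM in Tom- members, against 653 and 461 CPM in other fibroblasts, and the 8 urothelial markers to 49.6 and 119 CPM against 705 and 516 CPM. Cells with at least 2 UMIs of mesothelial, smooth muscle or urothelial markers were then left out, an alternative added after the data were seen. These were 4 Tom+ and 48 Tom- members and 269 Tom+ and 2209 Tom- other fibroblasts. The number of lower genes was then 139 in place of 358, and of higher genes 140 in place of 184. After this, Slpi was at 0.928 and 11.9 CPM in members against 1.503 and 13.0 CPM, Prg4 changed direction in both libraries and Trem2 in the Tom+ library. On the scale with 1 CPM added, H2-Ab1, Smpd3 and Slc9a3r1 alone of the 12 lowest genes were still at least 2 times lower in both libraries. Cd74, at plain ratios of 0.480 in Tom+ and 0.458 in Tom-, missed this threshold. In the Tom+ library H2-Ab1 (0 against 3.87 CPM) and Smpd3 (0.928 against 4.94 CPM) lay under the 10 CPM asked of measured genes. Edn3, Gucy1b1, Adcyap1r1 and Smoc2 stayed at least 4.53 times higher in members in each library.

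Between Tom+ and Tom- members, Cxcl12 was 1.498 times higher in Tom+ (1.42 to 1.58, log2 ratio 0.58). In other fibroblasts the ratio was 1.19. The members of the 2 libraries differed in the number of rule genes, and within cells with 3, 4 and 5 genes the ratios were 1.51 (1.37 to 1.67), 1.202 (1.09 to 1.32) and 1.34 (1.21 to 1.47). With equal weight on these 3 classes, also an alternative added later, the log2 ratio was 0.43. Each value lay above 1, but the ratio depended on where the threshold lay: it was 0.88 on the log2 scale with at least 2 rule genes and 0.36 with at least 4. Whether a Tom+ member made more of the transcript than a Tom- member or the libraries captured it unequally cannot be told apart with 1 library each.

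Across 9050 genes measured in members, 397 (4.39%) were at least 1.5 times higher in Tom+ and 668 (7.38%) at least 1.5 times lower, at a median log2 ratio of -0.01. The rule genes chose the cells, and Tom+ members had more of them detected, so their ratios are a description: Gucy1a1 was at 1.58, Stc2 at 1.65, and Dner, Kcnn3 and C1qtnf3 at 1.35, 1.41 and 1.45. With equal weight on the classes of 3, 4 and 5 genes, Gucy1a1 (log2 0.43) and Stc2 (log2 0.39) were under 1.5-fold. Gucy1b1 was 1.78 times higher (1.40 to 2.26) in Tom+ members, and 2.38, 1.41 and 1.11 times within cells with 3, 4 and 5 rule genes. Its log2 ratio was 0.37 with at least 4 rule genes and 0.24 after thinning, both under 1.5-fold. The ratio for Gucy1b1 in other fibroblasts was 1.11. Without cells with other-type markers, other fibroblasts had 10.95 CPM of Gucy1b1 in Tom+ and 7.44 CPM in Tom-. Of 15 measured nitric oxide and cGMP genes 4 were higher in Tom+ members (Gucy1b1, Pde9a, Gucy1a1 and Gucy1a2) and 2 lower (Mrvi1 and Npr3). Gucy1a1 is a gene of the rule and supports nothing, and Gucy1a2 rested on 15 UMIs in Tom+ members and turned to a log2 ratio of -0.22 in cells with at least 5000 UMIs. Pde9a rested on 43 UMIs in Tom+ and 63 UMIs in Tom- members. Its log2 ratio was 0.17 with at least 2 rule genes, and its ratio 0.70 (0.26 to 1.57) within members with 3.

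The other 11 genes at the top by size were Igfbp3, Sgcd, Adam19, Elmo1, Paxbp1, Susd6, Serpinb1a, Tspyl1, Mtap, Spry2 and Rnf144a. Of these, Elmo1 (log2 -0.46), Tspyl1 (-0.21) and Mtap (-0.47) changed direction after thinning, and Serpinb1a (-0.012) with at least 2 rule genes. Igfbp3, which binds insulin-like growth factors, had 140 CPM in Tom+ members and 46.8 CPM in Tom- members, but 5 of the 128 Tom+ members held 79.1% of its UMIs. After thinning its log2 ratio was 0.063. Its ratio was 5.17 in cells with 3 rule genes, 0.355 in those with 4 and 2.98 in those with 5. Sgcd, a sarcoglycan, had 81.5 and 41.3 CPM, and Adam19, a membrane metalloprotease, 80.6 and 43.7 CPM. Spry2, a relative of Spry1, had 174 and 109 CPM. In other fibroblasts Sgcd (1.90) and Rnf144a (1.93) were also higher in Tom+, whereas Adam19 stood at 1.01. Without cells with other-type markers, Adam19 in other fibroblasts was higher in Tom+ (27.3 CPM) than in Tom- (19.6 CPM). Within members with 5 rule genes Adam19 was at 0.857 (0.493 to 1.46). With at least 4 rule genes Adam19 (log2 0.47), Sgcd (0.56), Paxbp1 (0.43), Susd6 (0.50) and Rnf144a (0.25) were under 1.5-fold. Spry2 was under 1.5-fold after thinning (log2 0.40).

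**Figure D5:**
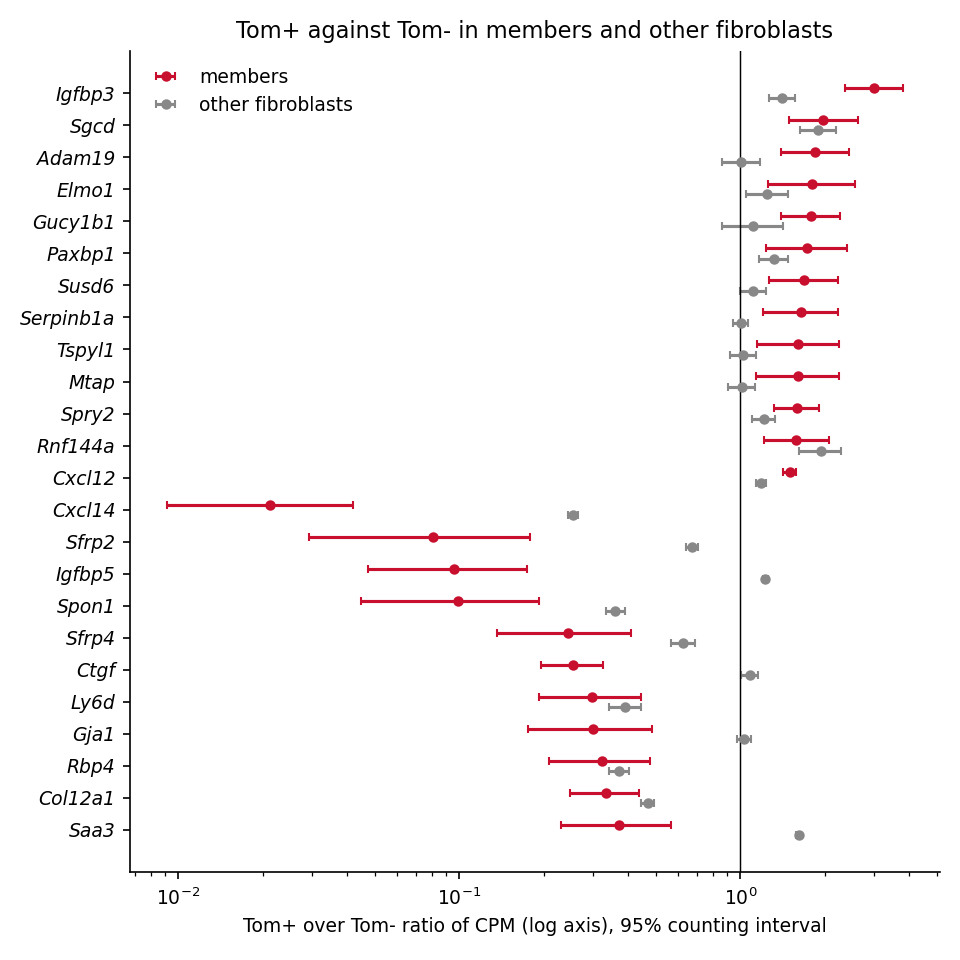
Ratio of Tom+ to Tom- levels (log axis, 95% counting intervals) in members (red) and other fibroblasts (grey) for the 12 highest genes, Cxcl12 and the lowest genes; Car3, with 0 UMIs in Tom+ members, cannot be drawn. Cxcl12 is at 1.498 in members and 1.19 in other fibroblasts, and Ctgf and Igfbp5 lie below 1 in members and above it in other fibroblasts. Without cells with other-type markers, Igfbp5 in other fibroblasts was also lower in Tom+ (206 CPM) than in Tom- (309 CPM). Cxcl12 was then at 489 (Tom+) and 317 CPM (Tom-) in other fibroblasts, against 1871 and 1336 CPM in members, and its ratio was no longer larger in members. In Tom- members 5 cells held 70.4% of the Igfbp5 and 52.8% of the Ctgf UMIs. Ctgf was at 0.98 within members with 4 rule genes.

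The genes lowest in Tom+ members were Car3, Cxcl14, Sfrp2, Igfbp5, Spon1, Sfrp4, Ctgf, Ly6d, Gja1, Rbp4, Col12a1 and Saa3. In Tom- members 5 cells held 74.7% of the Saa3, 74.4% of the Sfrp4, 70.4% of the Igfbp5 and 58.3% of the Rbp4 UMIs. After thinning, Spon1 (log2 0.47), Rbp4 (0.49), Col12a1 (1.78) and Saa3 (0.47) changed direction. Car3, a carbonic anhydrase abundant in fat and muscle, had 0 UMIs in Tom+ members, where a floor of 3 counts is 2.66 CPM, and 268 CPM in Tom- members. It was found in 37 of 270 Tom- members, and 1 cell held 234 of its 773 UMIs. Cxcl14, a chemokine of many stromal cells, had 7.09 CPM in Tom+ members and 335 CPM in Tom- members, where 5 cells held 66.1% of its UMIs. Both genes were also lower in Tom+ other fibroblasts, at ratios of 0.25 each. Cells with endothelial markers had 0.575 CPM of Car3 in the Tom+ and 87.1 CPM in the Tom- library, and 2.30 and 153 CPM of Cxcl14. Except for the 5 immune markers (4.43 CPM in Tom+ and 2.77 CPM in Tom- members), summed markers of other types followed the same direction in members. The 6 smooth muscle markers summed to 65.6 CPM in Tom+ and 254 CPM in Tom- members, the 6 pericyte markers to 59.4 and 77.7 CPM, and the 5 erythroid genes to 47.8 and 561 CPM. The part of RNA from other cells in these low values was not tested.

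In each of the lists that follow, most genes met neither threshold between Tom+ and Tom- members. Over all measured genes 4.39% were higher and 7.38% lower. Secretory factors linked to senescence had 1 of 45 measured genes higher (Igfbp3) and 13 lower, at a median of -0.09 on the log2 scale. Cxcl12 belongs to this list and lay just under the 1.5-fold threshold. Interferon-stimulated genes had 0 of 23 higher and 8 lower, at a median of -0.54. For the lowest of these genes, 1 cell held 43 of the 64 UMIs in Tom- members. Matrix glycoproteins had 1 of 62 higher and 12 lower (median -0.08), and Wnt genes 2 of 23 higher and 9 lower (median -0.21). Chemokines had 0 of 10 higher and 3 lower, at a median of -0.00017. Hypoxia genes had 2 of 15 higher and 0 lower.

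Genes of cell-cycle arrest gave no common direction. Of 19 measured cell-cycle inhibitors and senescence genes, Cdkn2a and Rb1 passed 1.5-fold upward and 1 gene downward. Rb1 rested on 29 UMIs in Tom+ and 47 UMIs in Tom- members. It was under 1.5-fold with at least 2 rule genes (log2 0.35), stricter cell filters (0.48) and equal weight on the rule-gene classes (0.51). Cdkn2a, whose products include p16, had 13 UMIs in Tom+ members, all in 1 cell, against 11 UMIs in 7 Tom- members. That Tom+ cell carried a barcode found in both libraries, and without such barcodes the log2 ratio was -2.27 in place of 1.38. Cdkn1a, which encodes p21, had 93.03 CPM in Tom+ members and 73.5 CPM in Tom- members, against 134 and 120 CPM in other fibroblasts. Of 18 measured p53 target genes, Zmat3 was higher and Plk2 and Gadd45a lower in Tom+ members.

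Abundant and immediate-early transcripts were among those that varied most between members of a library. After thinning to 2000 UMIs the variance-to-mean ratio was 23.3 in Tom+ and 15.8 in Tom- members for the nuclear RNA Malat1, 12.8 and 10.4 for Mgp, a calcification inhibitor, and 11.6 and 8.80 for Apoe. The immediate-early gene Fos stood at 7.32 and 7.27 and Jun at 5.38 and 6.19, against a median over genes of 1.10 and 1.09.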

How the data were processed

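Droplet 3′ single-cell libraries of CD45-negative, DAPI-negative cells were compared, 1 Tom+ and 1 Tom-. The deposited values are UMI counts, whole numbers without normalization, for 31054 features. Cell Ranger 7.0.0 and mm10 appear in the submitters' processing notes, and the file headers name software version 3.0.2. How barcodes were selected as cells is not given in the sources used here.

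The members and gene lists were chosen with earlier results of these data known. UMIs were summed over cells per library, scaled to CPM and compared as log2 ratios with 1 CPM added. Ratios have exact conditional binomial, sums Poisson and shares Clopper-Pearson 95% intervals. A gene was called at 1.5-fold between libraries and at 2-fold in both libraries against other fibroblasts. Named genes were the 12 highest and lowest between libraries and the 15 highest and 12 lowest against other fibroblasts, among genes with at least 50 CPM and found in at least 10% of cells on the higher side, without markers of other classes and without mitochondrial, ribosomal and haemoglobin genes, plus the rule genes, Cxcl12, Cxcr4, Ackr3, Cdkn2a, Cdkn1a and tdTomato; further list genes were chosen after their values were seen. Doublets were called per library with Scrublet (scanpy 1.11.5) and left out only as an alternative; edgeR 4.0.16 gave TMM factors for another. Other alternatives were stricter filters, other thresholds, thinning, cell weights, pseudocount and low-value filters. The ratio and interval scripts were tested on simulated data. Python 3.11.15, numpy 2.4.6, scipy 1.17.1 and pandas 2.3.3 were used. Gene positions are from a GRCm38 annotation. The result for 1 further gene of the lists is not reported here.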

Additional observations from a re-analysis of the deposited data

Results flagged for a closer look

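For 4 genes the Tom+ to Tom- difference had opposite directions in members and in other fibroblasts, each past 1.5-fold, and this difference between the groups was not tested. Saa3, an acute-phase protein gene, had a log2 ratio of -1.40 in members and 0.69 in other fibroblasts; 1 cell held 19 of its 24 UMIs in Tom+ members and 1 cell 108 of its 166 UMIs in Tom- members. Cyr61, a matricellular gene, had -1.09 in members and 0.74 in other fibroblasts. Eln, which encodes elastin, had -0.72 and 0.59, and Myoc, which encodes myocilin, -0.67 and 0.62. Eln stood at 356 CPM in Tom+ members and 587 CPM in Tom- members, against 280 and 185 CPM in other fibroblasts. These oppositions were not stable. Without cells with other-type markers, other fibroblasts had 13.5 CPM of Saa3 in the Tom+ and 19.9 CPM in the Tom- library, and 38.4 and 43.5 CPM of Cyr61, so that both genes were lower in Tom+ there too. In members the direction turned with at least 2 rule genes for Saa3 (0.18), Cyr61 (0.37) and Myoc (0.55), with at least 4 for Saa3 (0.44), and after thinning for Saa3 (0.47) and Eln (0.23).

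Among barcodes that the cell filters left out, 6 of 1042 in the Tom+ library and 5 of 3632 in the Tom- library held 3 or more of the 5 rule genes. They entered no comparison.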

How the results depend on the processing

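No paired analysis was possible because each group is 1 library. Cxcl12 stayed higher in members and in Tom+ members under every alternative run, with these log2 ratios (Tom+ over Tom- in members, then members over other fibroblasts in Tom+ and in Tom-) where they moved. With at least 2 rule genes they were 0.88, 2.46 and 1.66; the ratio of shares was 2.05, and 66 genes were higher and 116 lower in members. With at least 4, they were 0.36 and, in Tom-, 2.73, with a ratio of shares of 4.36. Thinned to 2000 UMIs, with only 48 Tom+ and 69 Tom- members, they were 0.28, 2.10 and 2.51, the ratio of shares 4.98, and 218 genes were higher and 246 lower in Tom+ members and 584 lower in members. With equal weight per cell they were 0.46, 2.20 and 2.18, with 718 genes higher in Tom+. Without cells with other-type markers they were 0.49, 1.93 and 2.07, with 139 genes lower in members. Equal weight over rule-gene classes gave 0.43 and members whose tdTomato matched the sort 0.46 between libraries. Without shared barcodes the Tom+ ratio over other fibroblasts was 2.36, and against others with at most 1 rule gene 2.99 and 2.49. A pseudocount of 5 CPM gave 222 higher and 434 lower genes in Tom+, no filter 1463 and 2323 (722 lower in members), and a 50 CPM filter 24 and 74 (105 and 114 in members). Stricter cell filters, a minimum of 5000 UMIs, a fibroblast threshold of 80, TMM and Scrublet moved none of these.

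Directions turned between libraries for Cdkn2a (-2.27 without shared barcodes, -2.32 with 4 rule genes, -0.63 with equal classes), with 2 rule genes for Serpinb1a (-0.012), Saa3 (0.18), C3 (0.037), Myoc (0.55) and Cyr61 (0.37), with 4 for Saa3 (0.44), with 5000 UMIs for Gucy1a2 (-0.22), and after thinning for Elmo1 (-0.46), Tspyl1 (-0.21), Mtap (-0.47), Spon1 (0.47), Rbp4 (0.49), Col12a1 (1.78), Saa3 (0.47), Zmat3 (-0.46) and Eln (0.23). Against other fibroblasts without other-type markers, Trem2 (0.43) and Prg4 (2.48) turned in Tom+, and Prg4 (1.26), Saa3 (0.050), C3 (0.056) and Gpm6a (0.00046) in Tom-. The cause was not tested. One mouse and 1 library a group limit every value.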
